A study of Mus musculus with 6 samples.

Results

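The enzymes that build triglyceride from glycerol 3-phosphate in liver were described in 10 genes, Gpd1, Gpam, Agpat1, Agpat2, Agpat3, Lpin1, Lpin3, Dgat1, Dgat2 and Mogat1. Each was chosen by its symbol, and all 10 were found among the 23474 genes of the expression table and passed the filter on low values. The livers came from male C57BL/6J mice aged 17 weeks. The BT group ate a high-fat diet that held 1.5% by weight of Bangpungtongseong-san, a herbal medicine given as an extract, and the HFD group ate the high-fat diet with no extract. Both diets started at 5 weeks of age and lasted 12 weeks in 10 mice per group, and 3 libraries per group were analysed. No group on a normal diet was analysed here, so every value is that of a liver on a fat-rich diet. Nothing in the labels says how many mice a library holds, so the tests measure the spread between these libraries, which may be technical.

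Hepatocytes store fatty acids as triglyceride by adding acyl chains to a glycerol backbone. In the glycerol phosphate route, dihydroxyacetone phosphate is reduced to glycerol 3-phosphate, acylated to lysophosphatidic acid, acylated again to phosphatidic acid, dephosphorylated to diacylglycerol and acylated a last time to triglyceride. Phosphatidic acid and diacylglycerol also feed phospholipid synthesis, and a side route makes diacylglycerol from monoacylglycerol. The route is known for its part in fatty liver, where triglyceride collects in droplets.

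Most steps are shared by paralogs, so coding stretches are shown for the families in which a member changed, to show how far the genes differ in sequence. Gpd1 and Gpd1l make the same cytosolic dehydrogenase reaction possible. Over the aligned bases their coding sequences were 73.7% identical. The 60 bases below lie around the glycine motif that binds NAD, from coding base 13 in Gpd1 and 19 in Gpd1l, and capitals mark the 13 bases that differ.
Gpd1: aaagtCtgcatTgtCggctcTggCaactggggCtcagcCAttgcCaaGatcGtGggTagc
Gpd1l: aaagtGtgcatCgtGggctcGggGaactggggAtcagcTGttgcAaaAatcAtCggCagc
Agpat1, Agpat2 and Agpat3 encode acyltransferases with a histidine followed after 4 residues by an aspartate in the active site. Capitals mark the 6 codons from that histidine to the aspartate in the 54 bases below.
Agpat1: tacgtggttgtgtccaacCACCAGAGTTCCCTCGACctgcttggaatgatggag
Agpat2: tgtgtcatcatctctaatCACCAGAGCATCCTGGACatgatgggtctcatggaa
Agpat3: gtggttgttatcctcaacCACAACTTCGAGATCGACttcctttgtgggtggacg
Over aligned bases, the coding sequences of Agpat1 and Agpat2 were 63.1% identical and those of Agpat1 and Agpat3 65.3%. Those of Agpat2 and Agpat3 were 62.2% identical. As a share of the longer coding sequence, identical bases made up 59.7%, 46.8% and 45.2% in that order. Dgat1 and Dgat2, which encode unrelated enzymes, reached 62.4% over aligned bases. Identity over aligned bases thus does not rank how close these genes are. No stretch of 50 bases was shared between the transcripts of Gpd1 and Gpd1l, of any pair of these 3 Agpat genes, of Lpin1 and Lpin3, or of Dgat2 and Mogat1. The sequences are those of the GENCODE M21 transcripts (GRCm38).

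Expression was measured as FPKM, the fragments of a gene scaled by transcript length and library depth, and levels were set side by side between genes. Such comparisons rest on the lengths used, and the annotation behind them is not given in the sources used here. Trends of a library on length and GC content stay in these values unless their removal is stated. Judged roughly from low values inside a fixed window, depth was about 14010000 to 15080000 fragments in BT libraries and 13760000 to 15830000 in HFD libraries. The window itself bounds such an estimate, so the true depth may differ. At those depths the members rested on roughly 65 to 8900 fragments per library, with the fewest for Lpin3, at 65 to 100. The hepatocyte genes Ttr, Apoa1 and Apob were at 829 FPKM or more, and Cps1 and Tat at 102 FPKM or more, in all 6 libraries, although Alb is listed at 0 in HFD replicate 3. Of these 6 hepatocyte genes, Ttr fell by 0.76 on the log2 scale (adjusted p = 0.0157, limma) and the others did not pass, with Apoa1 in BT libraries below and Cps1 above every HFD library. Of 6 adipocyte markers, Adipoq was at 0.198, 0 and 0 FPKM in BT libraries, against 1.4, 0 and 0.174 FPKM in HFD libraries, and Lep and Plin1 were above 0 in HFD replicate 1 alone. The 6 summed to between 144 and 218 FPKM in BT libraries and between 55.6 and 197 FPKM in HFD libraries, nearly all of it Cfd. The 5 stellate cell markers summed to 5.71 to 11.3 FPKM in BT libraries and 11.5 to 31.0 FPKM in HFD libraries, with Lrat at 0 throughout. Of the 3 that were tested, Col3a1, a collagen, fell by 1.36 on the log2 scale (adjusted p = 0.0354, limma). The stellate sums did not overlap between the diets, with 11.3 and 11.5 FPKM nearest. Col3a1 and Acta2 each lay lower in every BT library than in every HFD library, while Col1a1 and Des each overlapped. Acta2 was under the filter and not tested, at 0.525, 0.321 and 0.548 FPKM in BT libraries, against 1.26, 0.591 and 1.14 FPKM in HFD libraries. The skeletal muscle markers Ckm and Myh4 were at 0 in HFD replicate 1, at 21.0 and 13.2 FPKM in HFD replicate 2 and at 4.09 and 2.64 FPKM in HFD replicate 3. In BT libraries Ckm was at 4.18, 6.58 and 3.3 FPKM and Myh4 at 7.25, 7.98 and 5.9 FPKM. Neither of these muscle genes passed. The part of such cells in the results was not tested. The sample codes in the description field differ in a letter between the diets, with no meaning stated, and whatever that letter marks cannot be told apart from diet.

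Of the 10 enzymes, 2 fell with BT, Gpd1 and Agpat2, and none rose. The test was limma on log2(FPKM + 1) across the 10476 genes that averaged 1 FPKM or more, with Benjamini-Hochberg adjusted p under 0.05, and it called 13.3% of all genes (6.01% higher and 7.33% lower). The members had a median log2 difference of -0.20, against 0.07 over all genes tested, with a range from -0.87 for Gpd1 to 0.33 for Gpam and Agpat1. BT and HFD values did not overlap in 5 members, below HFD in Gpd1, Agpat2, Dgat1 and Mogat1 and above it in Dgat2, and 39.3% of all genes tested showed such a separation (16.1% with BT below and 23.2% with BT above). In bulk liver, fewer cells of a type and less RNA per cell cannot be told apart. Across all genes 630 were higher and 768 lower. After median-of-ratios scaling 448 were higher and 884 lower, and on rescaling to a common sum 614 were higher and 557 lower. Once HFD replicate 3 was removed 857 were higher and 680 lower. The total of 1398 genes came to 173, 328 and 589 once BT replicate 1, 2 or 3 was removed, and to 618 once HFD replicate 2 was.

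Dgat2 was the most abundant member in every library, followed by Agpat2 and Agpat3, whose values did not overlap. With BT, Gpd1 (18.6 to 20.9 FPKM), Dgat1 (19.1 to 19.5 FPKM) and Gpam (15.3 to 21.0 FPKM) stood at overlapping levels. In HFD libraries Gpd1 (32.7 to 40.2 FPKM) lay above Dgat1 (20.9 to 29.2 FPKM) and Gpam (9.8 to 19.2 FPKM). With BT, Agpat1 and Mogat1 followed with overlapping values. In HFD libraries Mogat1 (14.7 to 23.5 FPKM) overlapped Dgat1 and Gpam. Lpin1 and Lpin3 were the lowest with BT, and Lpin3 was the lowest in all 6 libraries.

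**Figure D1:**
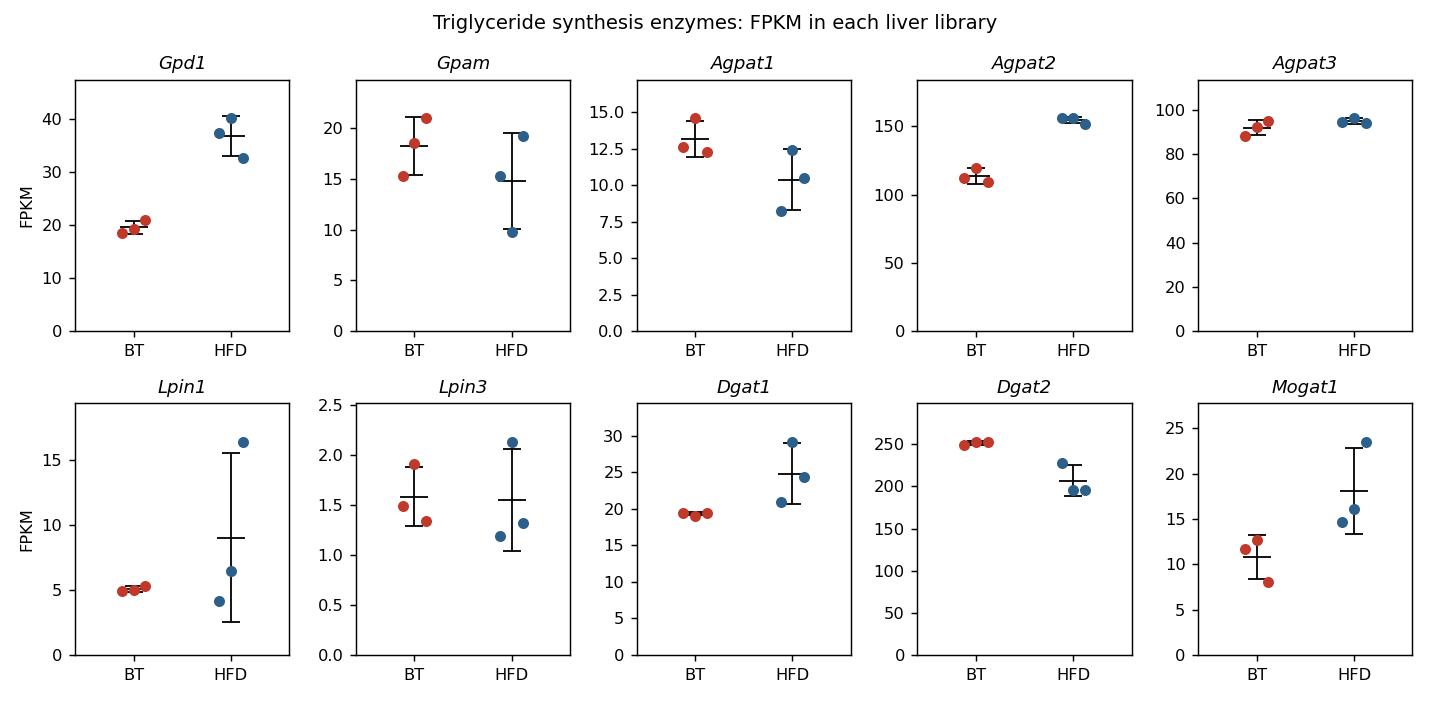
FPKM of the 10 enzymes in each library (vertical axes, from 0 and scaled per gene), with BT on the left and HFD on the right of each panel. Points are libraries, and bars give the mean and SD of 3. Gpd1 and Agpat2 are below every HFD library in all 3 BT libraries, and the spread of Lpin1 in HFD comes from 1 library at 16.4 FPKM.

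Gpd1, the cytosolic enzyme that reduces dihydroxyacetone phosphate to glycerol 3-phosphate (protein-coding, chromosome 15, 99717515 to 99725005, plus strand), had 18.6, 19.3 and 20.9 FPKM in BT libraries, against 37.4, 40.2 and 32.7 FPKM in HFD libraries. All BT values lay below all HFD values, with a gap wider than the spread inside either group. The means were 19.6 ± 1.21 FPKM with BT and 36.8 ± 3.8 FPKM with HFD (SD, n = 3 each), a log2 difference of -0.87 with a 95% interval of -1.13 to -0.62. Gpd1 passed in each of the 6 fits that left out 1 library (adjusted p between 0.00992 and 0.0369, limma) and under all 9 other settings. Exons of the gene model Gm16537 on the other strand cover 12.97% of its exon bases, and the strand setting of the counting is not given in the sources used here.

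Its paralog Gpd1l, whose protein makes the same reaction (chromosome 9, 114899341 to 114933987), rose with BT. It had 9.32, 7.98 and 9.37 FPKM in BT libraries, against 6.26, 5.48 and 5.38 FPKM in HFD libraries. The groups did not overlap, and the log2 difference was 0.56 ± 0.12 (SE, limma adjusted p = 0.0219). Gpd1l missed the threshold when any BT library or HFD replicate 2 was left out, with a highest adjusted p of 0.101, and with no filter on low values (adjusted p = 0.0513, limma). As a share of the summed FPKM of both paralogs, Gpd1 made up 66.6%, 70.7% and 69.1% in BT libraries, against 85.6%, 88.0% and 85.9% in HFD libraries. The sum itself was 28.5 ± 1.6 FPKM with BT and 42.5 ± 3.94 FPKM with HFD (SD, n = 3 each), without overlap between the diets. The share of Gpd1 separated too, as it must where Gpd1 is lower and Gpd1l higher without overlap.

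The other genes listed for the supply or use of glycerol 3-phosphate did not pass the test. Aqp9, the glycerol channel of hepatocytes, was at 292, 304 and 291 FPKM in BT libraries, against 271, 206 and 227 FPKM in HFD libraries. These values did not overlap, and the log2 difference was 0.34 (adjusted p = 0.0917, limma). Without HFD replicate 1 Aqp9 passed, at 0.45. Gk, the glycerol kinase, averaged 58.9 ± 6.46 FPKM with BT and 61.1 ± 10.7 FPKM with HFD. Gpd2, the mitochondrial dehydrogenase that uses glycerol 3-phosphate, averaged 6.13 ± 0.838 FPKM with BT and 5.99 ± 1.34 FPKM with HFD (SD, n = 3 each). For Gk and Gpd2 the groups overlapped.

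The first acylation showed no member past the threshold. Gpam, the mitochondrial glycerol-3-phosphate acyltransferase (chromosome 19, 55067268 to 55127238), had 15.3, 18.5 and 21.0 FPKM in BT libraries, against 15.3, 9.8 and 19.2 FPKM in HFD libraries. The groups overlapped, HFD replicate 2 was the lowest, and the 95% interval of the log2 difference of 0.33 ran from -0.18 to 0.83. Without HFD replicate 3 the difference was 0.53 and without HFD replicate 2 it was 0.08, neither past the threshold. Gpat4, an enzyme of the endoplasmic reticulum for the same reaction, was the most abundant of the 4 genes by mean, at 33.0 ± 1.73 FPKM with BT and 33.3 ± 7.74 FPKM with HFD (SD, n = 3 each). Gpat3, the other one of that membrane, averaged 8.06 ± 2.12 FPKM with BT and 7.55 ± 2.43 FPKM with HFD, although other exons cover 37.44% of its exon bases. Gpat2, named as a mitochondrial paralog and low here, was at 0.842, 1.17 and 1.26 FPKM in BT libraries, against 1.58, 1.98 and 1.91 FPKM in HFD libraries. Its values did not overlap and missed the threshold (-0.44, adjusted p = 0.0652, limma). It passed with median-of-ratios scaling and once the length and GC trend of each library was removed, both at -0.48. Summed over the 4 genes, the first acylation stood at 60.4 ± 4.1 FPKM with BT and 57.5 ± 8.41 FPKM with HFD, with overlapping libraries.

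In the second acylation Agpat2 fell, while Agpat1 and Agpat3 did not pass. Agpat2 encodes the acyltransferase of phosphatidic acid synthesis whose loss in people causes generalized lipodystrophy (chromosome 2, 26593057 to 26604417, minus strand). It had 112, 119.8 and 109 FPKM in BT libraries, against 156, 156 and 152 FPKM in HFD libraries. The HFD libraries lay within a narrow band and every BT library below it, with a log2 difference of -0.44 ± 0.09 (SE, limma adjusted p = 0.0221). The call was lost without BT replicate 1, 2 or 3 (adjusted p of 0.108, 0.0677 and 0.0777) and on rescaling to a common sum (-0.35, adjusted p = 0.0579). It was also lost once the trend of each library on transcript length and GC content was removed, where the difference was -0.20 (adjusted p = 0.201). The longest Agpat2 transcript has 1489 bases and 58.03% GC.

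Agpat3 (chromosome 10, 78269178 to 78352489) was at 88.3, 92.2 and 95 FPKM in BT libraries, against 94.4, 96.2 and 94 FPKM in HFD libraries. The groups overlapped, and the 95% interval of the difference of -0.05 ran from -0.25 to 0.16 on the log2 scale; rescaled to a common sum it was 0.04. When trends on length and GC were taken out, Agpat3 stood at -0.23 (adjusted p = 0.145, limma), next to the -0.20 of Agpat2. Agpat1 (chromosome 17, 34604262 to 34613449) had 12.6, 14.6 and 12.3 FPKM in BT libraries, against 8.21, 12.4 and 10.5 FPKM in HFD libraries. BT replicate 3 lay just under HFD replicate 2, so the groups overlapped (0.33, adjusted p = 0.169, limma). Without HFD replicate 1 the difference of Agpat1 was 0.19.

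Of the less abundant enzymes of this step, Agpat5 averaged 2.63 ± 0.0226 FPKM with BT and 2.50 ± 0.399 FPKM with HFD, and Lclat1, which also remodels cardiolipin, 10.9 ± 0.289 FPKM with BT and 9.37 ± 1.88 FPKM with HFD (SD, n = 3 each). Agpat4 lay below the filter, at 0.342, 0.461 and 0.485 FPKM in BT libraries, against 0.728, 0.897 and 0.736 FPKM in HFD libraries, and was not tested. Summed over the 6 genes, the step stood at 227, 241 and 230.5 FPKM in BT libraries, against 273, 275 and 269 FPKM in HFD libraries. Within that sum Agpat2 held 48.9 ± 1.2% with BT and 56.7 ± 0.292% with HFD, and Agpat3 held 39.5 ± 1.54% with BT and 34.8 ± 0.226% with HFD. In FPKM as listed, the lower sum with BT therefore sat mainly in Agpat2. With the length and GC trend removed, Agpat2 and Agpat3 differed alike, at -0.20 and -0.23 on the log2 scale.

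The promoter windows of Agpat2 and Agpat3 are printed because these are the most abundant genes of the step. They are 300 bases of RefSeq (GRCm38.p6), from 250 before to 50 after the start that its table takes, on the minus strand. For Agpat3 that start lies inside the GENCODE gene given above, so the window is not upstream of the outermost start. In both, capitals mark matches to the 4 motifs searched on both strands. These were the CCAAT box, the E-box CACGTG, the TATA motif TATAAA and the GC box GGGCGG.
Agpat2, chr2:26604368-26604667: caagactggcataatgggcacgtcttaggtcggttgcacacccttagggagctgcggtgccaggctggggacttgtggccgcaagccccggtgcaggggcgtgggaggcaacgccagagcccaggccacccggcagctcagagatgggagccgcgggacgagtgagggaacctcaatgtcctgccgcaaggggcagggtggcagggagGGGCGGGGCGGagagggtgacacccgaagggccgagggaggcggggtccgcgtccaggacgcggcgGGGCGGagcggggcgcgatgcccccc
Agpat3, chr10:78351651-78351950: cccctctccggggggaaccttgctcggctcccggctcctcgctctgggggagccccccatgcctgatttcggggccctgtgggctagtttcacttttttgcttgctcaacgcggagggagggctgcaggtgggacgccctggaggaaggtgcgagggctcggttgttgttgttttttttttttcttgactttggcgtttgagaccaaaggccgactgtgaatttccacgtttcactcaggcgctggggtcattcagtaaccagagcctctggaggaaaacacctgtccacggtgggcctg
Agpat2 held 3 matches to GGGCGG, which overlap by a base in the first pair, and none to the other 3 motifs. Agpat3 held no match to any of the 4. Over all 32851 windows, GGGCGG was found in 35.7%, CCAAT in 37.4%, TATAAA in 13.6% and CACGTG in 7.2%. GC content was 72.0% in the Agpat2 window and 59.0% in that of Agpat3. A match describes the letters only. Windows were found for 7 of the 10 members, not for Gpd1, Dgat1 and Dgat2.

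Neither lipin passed. Lipins are the phosphatases that turn phosphatidic acid into diacylglycerol. Lpin1 (chromosome 12, 16535669 to 16610966) had 4.88, 4.96 and 5.32 FPKM in BT libraries, against 4.16, 6.47 and 16.4 FPKM in HFD libraries. The BT libraries were close together and the HFD libraries were not, with HFD replicate 3 far above the rest. The log2 difference of -0.53 had a 95% interval of -1.37 to 0.31, and it was -0.04 without HFD replicate 3 and -0.91 without HFD replicate 1 (adjusted p = 0.894 and 0.0943, limma). Lpin3 (chromosome 2, 160880670 to 160906002) was at 1.49, 1.91 and 1.34 FPKM in BT libraries, against 1.19, 2.13 and 1.32 FPKM in HFD libraries. Its groups overlapped almost fully, and its difference of 0.03 changed sign in 5 of 14 other fits. Lpin2, the third lipin, is listed at 0 in all 6 libraries, which can be a failed estimate, and no level was read from it. The phosphatases Plpp1, Plpp2 and Plpp3, which act on lipid phosphates at the cell surface, differed by -0.16, -0.14 and 0.17, none past the threshold, and Plpp1 and Plpp2 changed sign (0.02 and 0.03) when trends on length and GC were taken out.

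The final step, the acylation of diacylglycerol, is made by 2 unrelated enzymes, and neither passed the test. Dgat2 (chromosome 7, 99153658 to 99182719), linked in liver to newly made fatty acids, was at 249, 253 and 253 FPKM in BT libraries, against 228, 196 and 196 FPKM in HFD libraries. Every BT library lay above every HFD library, and the log2 difference was 0.28 with a 95% interval of 0.05 to 0.52 (adjusted p = 0.0963, limma). Dgat1 (chromosome 15, 76502015 to 76511953) also uses fatty acids supplied from outside as substrate. It was at 19.5, 19.1 and 19.4 FPKM in BT libraries, against 20.9, 29.2 and 24.4 FPKM in HFD libraries. Every BT library lay below every HFD library, closest to HFD replicate 1, with a log2 difference of -0.34 and an interval of -0.63 to -0.04 (adjusted p = 0.112, limma). Without HFD replicate 1 both passed, Dgat2 at 0.36 (adjusted p = 0.0432) and Dgat1 at -0.45 (adjusted p = 0.0455). Without HFD replicate 2 Dgat1 was at -0.22.

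Dgat1 and Dgat2 together gave 268, 272 and 272 FPKM in BT libraries, against 249, 225 and 220.3 FPKM in HFD libraries. Dgat1 was 7.26%, 7.01% and 7.12% of that sum in BT libraries, against 8.4%, 13.0% and 11.1% in HFD libraries. The 3 BT libraries thus held a nearly constant share of Dgat1, below that of each HFD library. That separation follows from the values of Dgat1 and Dgat2, which lay apart in opposite directions.

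Mogat1, which acylates monoacylglycerol to diacylglycerol outside the glycerol phosphate route (chromosome 1, 78510991 to 78538173), was at 11.7, 12.7 and 8.03 FPKM in BT libraries, against 14.7, 16.1 and 23.5 FPKM in HFD libraries. The groups did not overlap, and the largest gap inside a group was that of HFD replicate 3 above the other HFD libraries. The means were 10.8 ± 2.47 FPKM with BT and 18.1 ± 4.7 FPKM with HFD (SD, n = 3 each), and the log2 difference of -0.69 missed the threshold (adjusted p = 0.059, limma). Mogat1 passed with median-of-ratios scaling (-0.75, adjusted p = 0.0484) and with a filter of 5 FPKM (adjusted p = 0.0499). With the length and GC trend removed it was -0.45 (adjusted p = 0.233). Exons of BC035947 on the other strand cover 12.84% of its exon bases. Mogat2, the intestinal enzyme, averaged 0.457 ± 0.213 FPKM with BT and 0.421 ± 0.219 FPKM with HFD (SD, n = 3 each) and was too low to be tested.

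**Figure D2:**
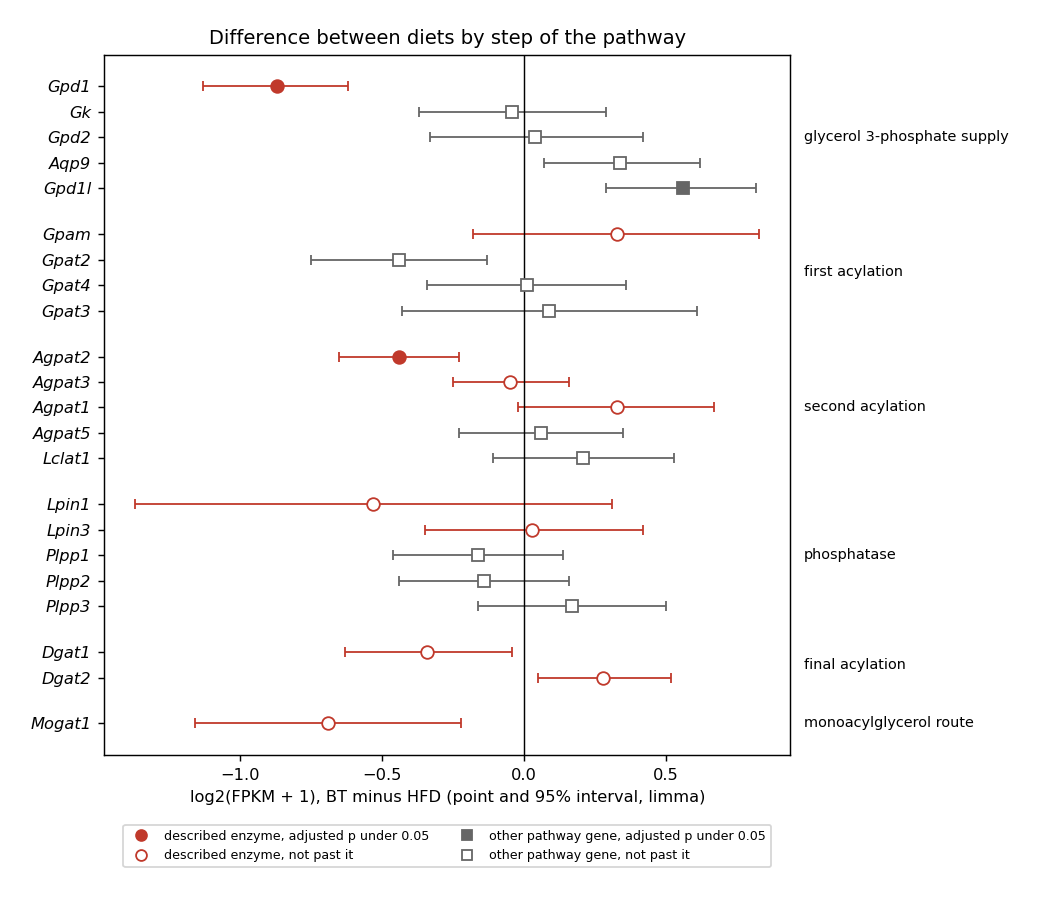
Log2 differences (horizontal axis, BT minus HFD on log2(FPKM + 1)) with 95% intervals from limma for the 10 members (red circles) and 12 other pathway genes that were tested (grey squares), grouped by step. Filled symbols passed an adjusted p of 0.05: Gpd1 and Agpat2 on the negative side and Gpd1l on the positive side.

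Of the 15 other genes listed for the glycerol phosphate and monoacylglycerol routes, 12 were tested, 1 rose (Gpd1l) and none fell. Over all genes tested, 13.3% were called. Their median log2 difference was 0.05, against 0.07 over all genes tested. The differences ran from -0.44 for Gpat2 to 0.56 for Gpd1l.

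**Figure D3:**
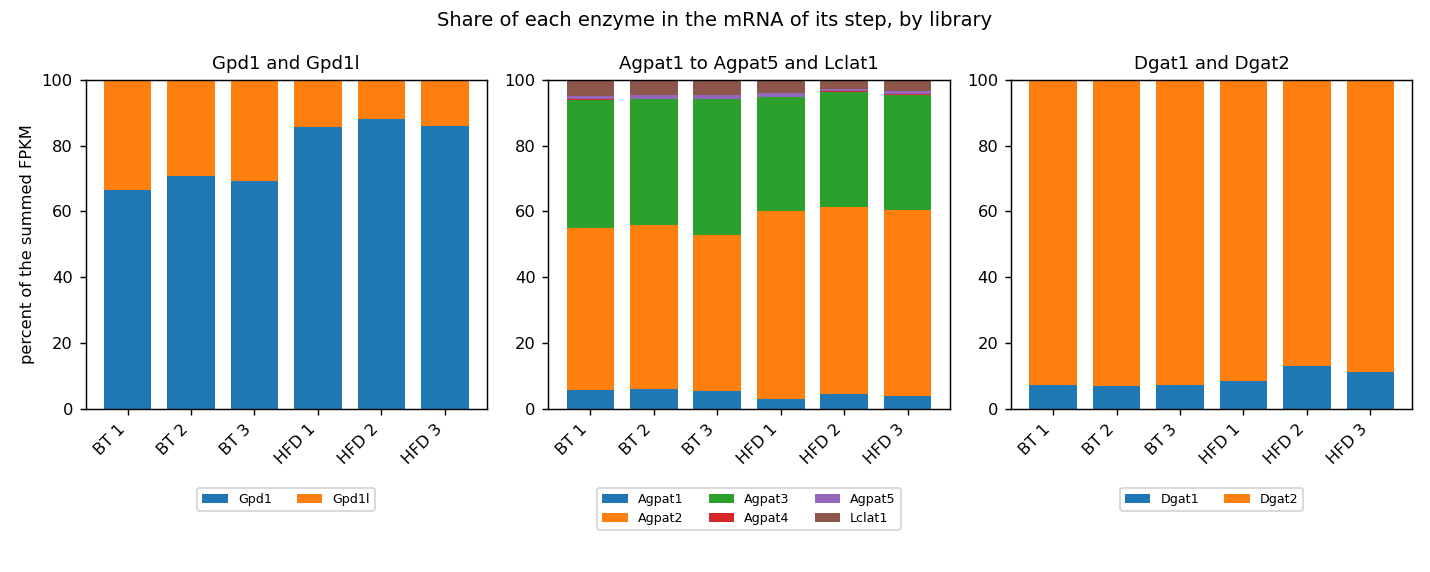
Share of each enzyme in the summed FPKM of its step (vertical axis, percent) in each library, with BT libraries on the left. Gpd1 fills 66.6% to 70.7% of its pair with BT and 85.6% to 88.0% with HFD, Agpat2 47.5% to 49.7% and 56.5% to 57.0% of the second acylation, and Dgat1 7.01% to 7.26% and 8.4% to 13.0% of the final one.

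Ratios inside a library do not depend on how libraries are scaled to each other, and 3 were compared. Gpd1 was 1.21, 1.04 and 0.995 times Gpam in BT libraries, against 2.44, 4.11 and 1.71 times in HFD libraries. With BT, Gpd1 and Gpam were thus near equal in level, and with HFD Gpd1 was above Gpam. This holds for these genes and not for their steps. Summed over its genes, the first acylation lay above Gpd1 plus Gpd1l in every library, closest in HFD replicate 2 (48.2 against 45.7 FPKM). Agpat2 was 1.27, 1.30 and 1.15 times Agpat3 in BT libraries, against 1.65, 1.62 and 1.62 times in HFD libraries. Dgat2 was 12.8, 13.3 and 13.0 times Dgat1 in BT libraries, against 10.9, 6.71 and 8.02 times in HFD libraries. None of the 3 ratios overlapped between the diets. For Dgat2 over Dgat1 this follows from the single genes, which separated in opposite directions. Gpd1 over Gpam and Agpat2 over Agpat3 each set a gene already called lower over one that was not called. The separation is thus not further evidence, and how many other gene pairs separate was not counted. The log2 ratios, on FPKM + 1, differed by -1.20, -0.39 and 0.62 in that order, each with p = 0.1 in a two-sided exact permutation test (0.1 after adjustment over the 3), which is the smallest p that 3 against 3 libraries allow. With the trend of each library on length and GC removed, a setting chosen after seeing the data, they were -1.04, 0.03 and 0.53, so the difference of Agpat2 over Agpat3 did not keep its sign.

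Among 10 genes of acyl-CoA supply, 9 were tested, 1 rose and 1 fell, with a median of 0.00. The share called over all genes tested was 13.3%. Slc27a2, a very-long-chain acyl-CoA synthetase and fatty acid transporter, averaged 1235 ± 69.0 FPKM with BT and 840.4 ± 63.7 FPKM with HFD (SD, n = 3 each; 0.56, limma adjusted p = 0.0206). It missed the threshold without any one of the BT libraries and with no filter on low values (adjusted p = 0.0547, limma). Dbi, the acyl-CoA-binding protein that carries the substrates of these acyltransferases, had 845, 752 and 808 FPKM in BT libraries, against 1908, 1958 and 1790.4 FPKM in HFD libraries. Its log2 difference was -1.23 ± 0.11 (SE, limma adjusted p = 0.00157), and its call held with any single library removed (adjusted p between 0.00419 and 0.0152). After removal of trends on length and GC, Dbi stood at -0.88.

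Among 20 genes of the phospholipid branch, which uses the same phosphatidic acid and diacylglycerol, 18 were tested, 1 rose and 3 fell, with a median of 0.02. Over all genes tested, 6.01% were called higher and 7.33% lower. Chka and Chkb, the choline kinases, fell by 0.90 and 0.65 on the log2 scale. Chka averaged 18.6 ± 4.69 FPKM with BT and 36 ± 11.5 FPKM with HFD, and Chkb 57.3 ± 5.73 FPKM with BT and 90.8 ± 16.1 FPKM with HFD (SD, n = 3 each), although other exons cover 57.63% of the exon bases of Chkb. Ptpmt1, a mitochondrial phosphatase of cardiolipin synthesis, fell by 0.48, with 52.31% of its exon bases covered by other exons. Etnk2, an ethanolamine kinase, rose by 0.46, at 142 ± 9.26 FPKM with BT and 103 ± 1.75 FPKM with HFD. All 4 lost the call when BT replicate 1 or 2 was removed, Ptpmt1 also when BT replicate 3 was, and Chka also when HFD replicate 2 or 3 was. Chka missed it too on rescaling to a common sum, Etnk2 with median-of-ratios scaling, and Chka and Chkb with no filter on low values (adjusted p = 0.102 and 0.0623, limma).

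None of 6 partners of the pathway passed, with a median of -0.16. At an unadjusted p under 0.05 (limma) there was 1, where 3397 of all 10476 genes tested had such a p. That 1 was Bscl2, which encodes seipin of the lipid droplet neck. It was at 28.4, 29.2 and 26.7 FPKM in BT libraries, against 36.2, 39.6 and 33.3 FPKM in HFD libraries, without overlap (-0.36, adjusted p = 0.0532, limma). Ctdnep1 and Cnep1r1, the phosphatase pair that acts on lipins, differed by -0.05 and -0.03.

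The 5 protein-coding genes most like Gpd1 across the 6 libraries were Sap18, Pla2g12b, Rps23, Rpl15 and Eif1, with Pearson r of log2(FPKM + 1) between 0.994 and 0.996. The 6 points fall into the 2 diets, so these values describe genes with the same split between diets and no more. Among the members, r with Gpd1 was 0.961 for Agpat2, 0.81 for Dgat1, 0.70 for Agpat3, 0.654 for Mogat1, 0.317 for Lpin1, -0.001 for Lpin3, -0.577 for Gpam, -0.652 for Agpat1 and -0.847 for Dgat2.

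**Figure D4:**
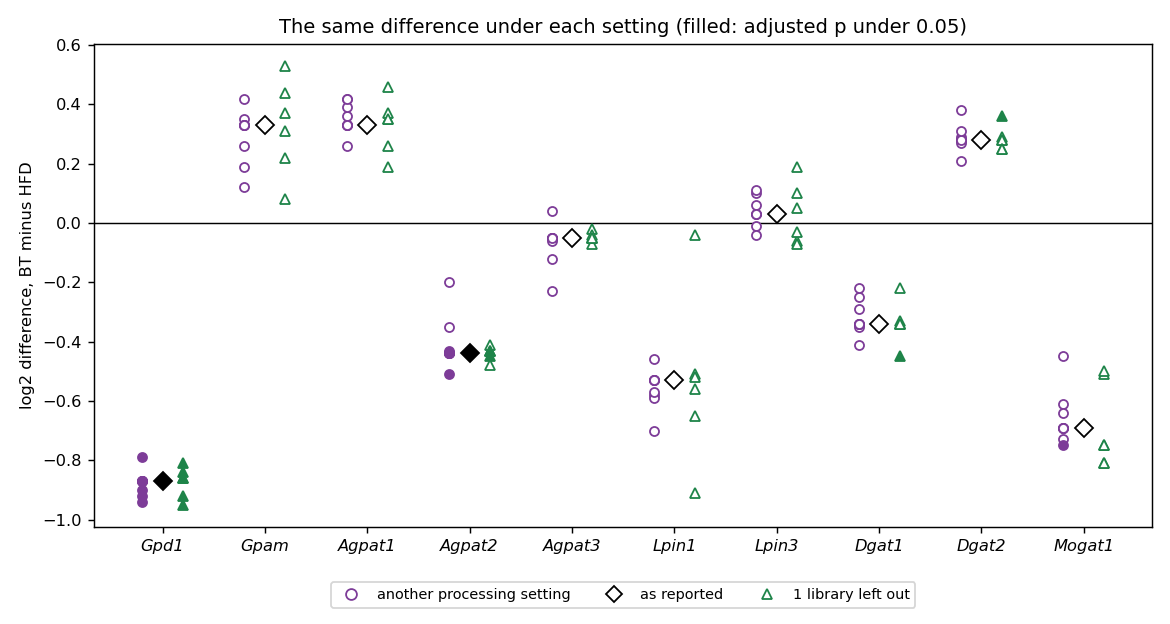
Log2 difference between diets (vertical axis, BT minus HFD) of each member as reported (diamond), under 9 other processing settings (circles) and with 1 library left out (triangles). Filled symbols passed an adjusted p of 0.05. Gpd1 is filled throughout between -0.95 and -0.79, Agpat2 is filled in part between -0.51 and -0.20, and Lpin1 spans -0.91 to -0.04.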

How the data were processed

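Liver mRNA libraries (TruSeq, per the labels' protocols) of 3 BT and 3 HFD samples were compared, grouped by sample title. The authors deposited 1 table of FPKM for 23474 Ensembl identifiers, and, per the submitters' processing notes, the tools included Cufflinks 2.1.1, STAR 2.4.0 and CASAVA 1.8.2. The sources used here do not give the genome build, the annotation or the strand setting. No counts came with the table. What 1 fragment is worth was taken as the median of FPKM times kilobases in genes with 1 transcript over 1000 bases. Only values between 0.03 and 0.1 were used, which limits what the estimate can return, and fragment-length corrections were ignored. Symbols and positions come from GENCODE M21 (GRCm38), which may not be the authors' build, and named 22671 identifiers.

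log2(FPKM + 1) of genes averaging 1 FPKM or more was fitted with limma 3.58.1 (R 4.3.3, eBayes with trend, two-sided, 4 residual degrees of freedom), adjusted over 10476 genes. The scale understates changes of low genes. The fit was tested on simulated data. Members and lists were chosen with earlier results of these data known. Named were the 10 members, all other listed genes of both routes that the text describes, called genes of the other lists, Bscl2, Ctdnep1, Cnep1r1 and marker genes, named after their values were seen, and the 5 genes most like Gpd1. Alternatives were a pseudocount of 0.1, no filter, a filter of 5 FPKM, TPM and median-of-ratios scaling, no variance trend, array weights, a replicate block, removal of each library's trend on length and GC (splines with 5 degrees of freedom), and leaving out each library. For the ratios, the length and GC setting was chosen after seeing the data. Figures used matplotlib 3.10.9.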

Additional observations from a re-analysis of the deposited data

How the results depend on the processing

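The 2 calls among the members were the same under a pseudocount of 0.1, no filter, no variance trend and array weights. The count was 1 (Gpd1) on rescaling to TPM and 1 (Gpd1) with the length and GC trend removed, and 3 with a filter of 5 FPKM or median-of-ratios scaling, which added Mogat1. Leaving out 1 library gave 1 to 4 called members, with 4 (Gpd1, Agpat2, Dgat1 and Dgat2) without HFD replicate 1 and 1 without each BT library in turn. Over all genes, 1398 calls became 545 with no filter on low values, where 17095 genes were tested, and 173 to 1537 with 1 library left out. The cause was not tested. No called gene of the members or of the pathway genes named changed sign in any setting. The differences of the 3 within-library ratios kept their sign with a pseudocount of 0.1 and with any library left out. With the length and GC trend removed, a setting chosen after seeing the data, Agpat2 over Agpat3 turned to 0.03, against -0.39 as reported. Gpd1 over Gpam was -1.04 and Dgat2 over Dgat1 0.53.

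Replicate numbers are shared between the diets, but nothing in the labels pairs them. The numbers were not taken as pairs for that reason. Deviations from the group means correlated at 0.163, 0.097 and 0.147 for numbers 1, 2 and 3, against -0.134 to 0.009 for unlike numbers. Each library thus correlated best with its own number. Deviations cancel within a group, so higher values for like numbers force lower ones for unlike numbers. Whether the numbers mark something shared was not tested. With a replicate block 1808 genes and the same 2 members were called. By the rough estimate of depth, Lpin3 rested on the fewest fragments of the members, at 65 to 100 per library.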
